A study of Mus musculus with 4 samples.

Results

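Prostanoids and platelet-activating factor are lipid mediators, and 10 mouse genes that make, break down or sense them were followed in alveolar macrophages of lungs that carried metastases and of untreated lungs. They were taken by their deposited gene symbols, which are Pla2g7, Pla2g15, Ptgir, Ptger2, Ptger4, Ptgs1, Ptgs2, Ptges, Ptges3 and Tbxas1. Of the 10 genes 9 are among the 7280 genes with a count, and Ptgs2 is listed at 0 throughout. The set was selected on the tag counts of this same comparison, so the differences between groups are given as a description of these 4 libraries and not as independent evidence. The day 21 metastasis group had 2 libraries of alveolar macrophages from wild-type BALB/c mice with lung metastases, 21 days after BNL cells were given by vein. BNL is a line of mouse liver cancer (hepatocellular carcinoma). The untreated group had 2 libraries of the same cells from wild-type BALB/c mice with no injection and no lung metastasis. The labels give no age, no number of mice per library and no sham injection. The effect of being injected and that of bearing a tumour therefore cannot be told apart. Each SD quoted is the spread between the 2 libraries of a group, which may be technical. Each SE quoted comes from a model fit that also draws on the spread of the other genes or tags tested. RNA was counted by SAGE (serial analysis of gene expression), in which each transcript is counted by a short tag beside a site of the enzyme NlaIII, by design the site nearest its 3' end.

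Prostanoids are made from arachidonic acid, which phospholipases release from membranes and the cyclooxygenases Ptgs1 and Ptgs2 turn into prostaglandin H2. Terminal synthases then make thromboxane (Tbxas1) or prostaglandin E2 (Ptges, Ptges3), and the products act on receptors at the cell surface, among them Ptgir for prostacyclin and Ptger2 and Ptger4 for prostaglandin E2. Platelet-activating factor is another phospholipid mediator, which the secreted acetylhydrolase Pla2g7 inactivates. Macrophages of the lung are a known source of thromboxane and prostaglandin E2, and they are rich in Pla2g15, a lysosomal phospholipase that helps to break down surfactant phospholipid.

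The tags that carried most of the counts are shown because they decide which part of each transcript was read. Capitals mark the NlaIII site, and the lower-case letters are the 21-base deposited tag. The 42 listed tags of the 10 genes all matched GENCODE M21 transcripts (GRCm38) of their own gene on the sense strand, and 41 of them matched no other gene. The exception was a Ptges3 tag with 6 counts in all, which also matches Ptges3-ps and Gm11893. Of the 42 tags, 31 had a count in at least 1 library. All chromosomal positions below are on the plus strand of GRCm38.
Pla2g7 exon 2: CATGggtccatccttttcactggca
Pla2g7 3' UTR: CATGagagagagagagagagagagc
Pla2g15 exon 1: CATGgatcgccatctctgcacctgt
Pla2g15 3' UTR, most counted: CATGaagaaggaagaagtgagtgtg
Pla2g15 3' UTR, last site: CATGgtctctgtgtgacagcaggga
Ptgir 3' UTR: CATGcgggagggcaagccagtgctc
Tbxas1 exon 4: CATGatcaagcaggtgttggttgag
Ptges3 3' UTR, most counted: CATGacagtggggatttttttaaat
Ptges3 3' UTR, last site: CATGtatttaccccttactggaatg
Ptgs1 exon 10: CATGtggctgtggatgtcatcaagg
Ptgs1 3' UTR, last site: CATGaagctaataaaattctttctc

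The libraries held 1783814 and 1630776 tags for day 21 metastasis and 1962569 and 2198563 for untreated mice (replicates 1 and 2). The 10 genes together had 390 and 528 counts on day 21, against 252 and 884 counts in untreated mice. No tag in any library has a count of 1, so a gene listed at 0 may have had tags read once. Levels are CPM, the counts per 1000000 tags of the TMM-scaled library, and in these bulk samples fewer cells of a type and less RNA per cell cannot be told apart. Only 5 of the 10 genes had enough counts to pass the filter on low values (Pla2g7, Pla2g15, Ptgir, Ptges3 and Tbxas1). The other 5 had at most 7 counts in a library and are given by their counts alone.

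Pla2g7, the enzyme that removes the acetyl group of platelet-activating factor, had 52 and 120 counts on day 21, against 6 and 12 counts in untreated mice. That is 29.7 and 85.5 CPM on day 21, against 2.94 and 4.91 CPM in untreated mice. Both day 21 libraries lay above both untreated libraries, and within each group replicate 2 was the higher one. The mean level was 57.6 ± 39.5 CPM on day 21, against 3.93 ± 1.39 CPM in untreated mice (SD, n = 2 each), and the log2 change was 3.84 ± 0.82 (SE).

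The counts of Pla2g7 came from tags in 2 exons. The exon 2 tag (chr17:43588647-43588671, coding sequence, exon 2 of 12) had 36 and 109 counts on day 21, against 3 and 7 in untreated mice. The 3' UTR tag (chr17:43612023-43612047, exon 12 of 12) had 16 and 11 counts on day 21, against 3 and 5 in untreated mice. Both tags were higher on day 21 without overlap. The log2 change was 4.42 ± 0.94 for the exon 2 tag and 2.22 ± 0.95 for the 3' UTR tag (SE), and the difference between these was not tested. Only the 3' UTR tag sits at the last NlaIII site of the longest coding transcript, and it is a GA repeat but for its last base. The exon 2 tag is at the sixth of 7 sites counted from the 3' end there, and it is the last site only of a short annotated transcript. It held 69.2% and 90.8% of the Pla2g7 counts on day 21, with exact Clopper-Pearson 95% intervals of 54.9% to 81.3% and 84.2% to 95.3%. In untreated mice it held 50% and 58.3%, with intervals of 11.8% to 88.2% and 27.7% to 84.8%, so 6 and 12 counts cannot fix that share. These intervals cover counting error only.

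Ptgir, the receptor through which prostacyclin raises cyclic AMP, had 44 and 23 counts on day 21, against 6 and 5 counts in untreated mice. Its levels were 25.1 and 16.4 CPM on day 21, against 2.94 and 2.04 CPM in untreated mice. The groups did not overlap, and here replicate 1 was the higher library in each. Means were 20.8 ± 6.17 CPM on day 21, against 2.49 ± 0.64 CPM in untreated mice (SD, n = 2 each), a log2 change of 3.04 ± 0.83 (SE). Unlike Pla2g7, Ptgir was counted almost wholly at 1 place, the last NlaIII site of the transcript (chr7:16910084-16910108, exon 2 of 2, 3' UTR). That tag held 100% and 91.3% of its counts on day 21, against 100% in both untreated libraries. The other counted tag, in the coding sequence, had 2 counts in day 21 replicate 2.

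The receptors for prostaglandin E2 were barely seen. Ptger2, which couples to cyclic AMP, is listed at 0 in both day 21 libraries and had 3 and 4 counts in untreated mice. Ptger4, the other receptor of that kind, is listed at 0 in both day 21 libraries and had 0 and 2 counts in untreated mice. Counts this low sit near the smallest count recorded, so a difference in either receptor could not be detected from them. For Ptger2 the last NlaIII site of the longest coding transcript is not among the tags analysed here.

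**Figure D1:**
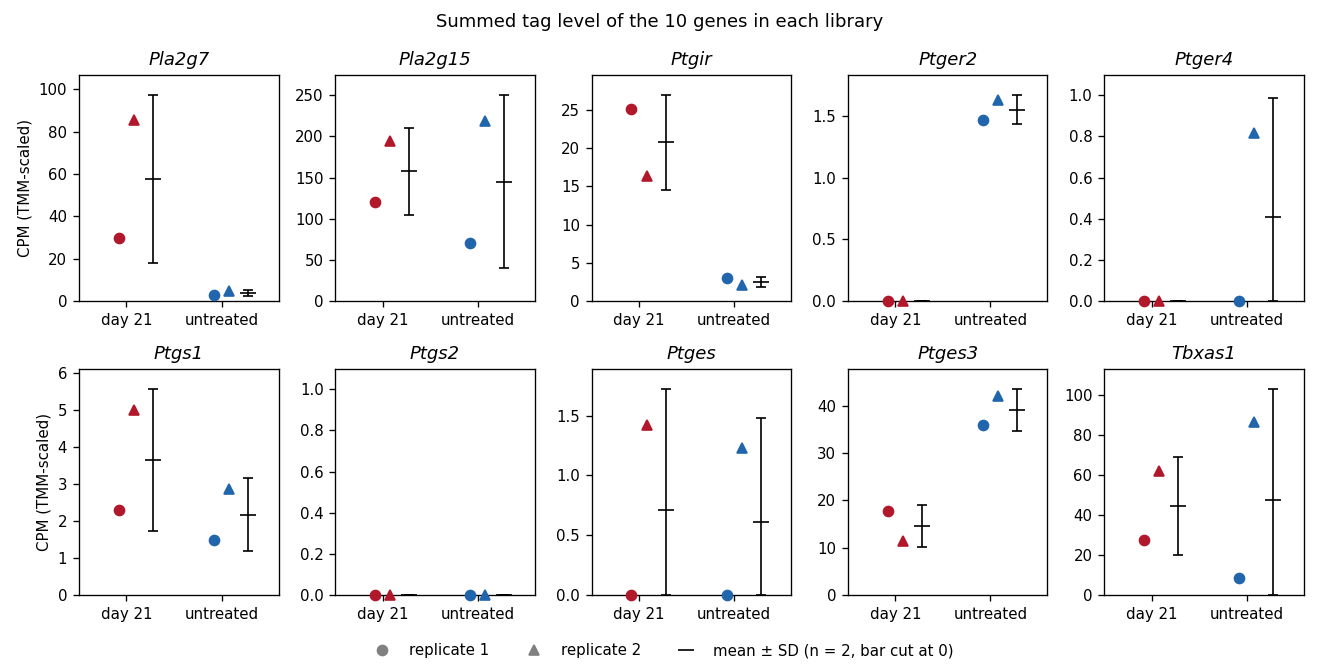
Level of each of the 10 genes in each library, in CPM of the TMM-scaled library on an axis of its own from 0. Circles are replicate 1 and triangles replicate 2, with mean ± SD beside them (n = 2 per group). Pla2g7 and Ptgir lie higher on day 21 without overlap, Ptges3 lies lower without overlap, and Pla2g15 and Tbxas1 spread more between the untreated libraries than between the group means.

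Cyclooxygenase transcripts were at the edge of detection. Ptgs2, the inducible cyclooxygenase, is listed at 0 in all 4 libraries over 3 listed tags, and its last NlaIII site is not among the tags analysed here. Ptgs1, the constitutive cyclooxygenase, had 4 and 7 counts on day 21, against 3 and 7 counts in untreated mice. Its totals overlapped, and its counts came from tags at different sites. The exon 10 tag (chr2:36249132-36249156, coding sequence) had 4 and 7 counts on day 21, against 0 and 3 in untreated mice. The tag at the last site (chr2:36252244-36252268, 3' UTR) is listed at 0 in both day 21 libraries and had 3 and 4 counts in untreated mice. That site lies 29 bases from the annotated end of the transcript. With so few counts these shares have wide intervals. The exon 10 tag held 100% in both day 21 libraries, with lower bounds of 39.8% and 59.0%, and 42.9% in untreated replicate 2, with an upper bound of 81.6%.

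Tbxas1, the synthase of thromboxane A2, had 48 and 87 counts on day 21, against 17 and 212 counts in untreated mice. The levels were 27.4 and 62.0 CPM on day 21, against 8.34 and 86.7 CPM in untreated mice. The untreated libraries were the lowest and the highest of the 4, so the groups overlapped entirely, with a log2 change of -0.10 ± 0.79 (SE). Without untreated replicate 2 the log2 change was 2.44, and without untreated replicate 1 it was -0.95, and without day 21 metastasis replicate 1 it was 0.44, so its direction depends on which libraries are used. Nearly all counts were in exon 4 (chr6:38982166-38982190, coding sequence, exon 4 of 13), the tenth of 11 NlaIII sites from the 3' end of the longest coding transcript. The exon 4 tag held 89.6% and 86.2% of the Tbxas1 counts on day 21, against 76.5% and 90.6% in untreated mice. The last site of that transcript is only 15 bases from the annotated end, too near for a whole tag, and the next 2 sites lie so close that the tag of one (6 counts in all) contains the site of the other (14 counts in all). The exon 4 site is the last one only in short annotated transcripts.

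Of the prostaglandin E2 synthases, only Ptges3 had counts enough for a comparison. Ptges2, which is outside the set, had 4 and 0 counts on day 21, against 4 and 11 in untreated mice. Ptges, the inducible microsomal enzyme, had 0 and 2 counts on day 21, against 0 and 3 counts in untreated mice, all in 1 of its 6 listed tags. Ptges3, known both as cytosolic prostaglandin E synthase and as the HSP90 co-chaperone p23, had 31 and 16 counts on day 21, against 73 and 103 counts in untreated mice. This gave 17.7 and 11.4 CPM on day 21, against 35.8 and 42.1 CPM in untreated mice. Both day 21 libraries were below both untreated ones. Means were 14.5 ± 4.45 CPM on day 21, against 39.0 ± 4.45 CPM in untreated mice (SD, n = 2 each). The log2 change was -1.41 ± 0.71 (SE), and the gene was not past the threshold of the test over all genes. The most counted tag of Ptges3 (chr10:128076934-128076958, exon 8 of 8) had 27 and 10 counts on day 21, against 58 and 70 in untreated mice. The tag at the last site (chr10:128077031-128077055) had 4 and 4 counts on day 21, against 11 and 13 in untreated mice. Both lie in the 3' UTR, and both were lower on day 21 without overlap.

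Pla2g15, the lysosomal phospholipase, had the most counts of the set, with 211 and 273 on day 21, against 144 and 536 in untreated mice. Levels were 120.4 and 194.5 CPM on day 21, against 70.7 and 219.2 CPM in untreated mice. As with Tbxas1, the untreated libraries enclosed the day 21 ones, and the log2 change was 0.12 ± 0.65 (SE). It was 1.18 without untreated replicate 2 and -0.47 without untreated replicate 1, and it was -0.15 with total counts in place of TMM scaling. Nearly all its counts were spread over 5 tags along the whole transcript, from exon 1 to the last site.

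The shares of 3 of these Pla2g15 tags did not overlap between the groups although the totals did. These shares are parts of the same total, so they are not independent of each other. How often tag shares of other genes separate in this way was not counted. The most counted tag (chr8:106163505-106163529, 3' UTR, exon 6 of 6) held 22.7% and 24.5% of the counts on day 21, against 31.9% and 35.4% in untreated mice. Its exact 95% intervals were 17.3% to 29.0% and 19.6% to 30.1% on day 21, against 24.4% to 40.2% and 31.4% to 39.7% in untreated mice, so the interval of untreated replicate 1 overlaps both day 21 intervals. The exon 1 tag (chr8:106150486-106150510), which spans the start of the coding sequence, held 20.9% and 24.9% on day 21, against 13.9% and 14.6% in untreated mice. Its intervals were 15.6% to 27.0% and 19.9% to 30.5% on day 21, against 8.69% to 20.6% and 11.7% to 17.8% in untreated mice. The coding tag of exon 6 (chr8:106163057-106163081) held 13.7% and 16.1% on day 21, against 11.1% and 10.8% in untreated mice, with intervals that overlap between all libraries of the 2 groups. The last-site tag (chr8:106164441-106164465) held 19.4% and 15.4% on day 21, against 22.2% and 18.8% in untreated mice, which overlap. Shares were not tested between groups, since 2 against 2 libraries allow no two-sided exact permutation p below 0.333.

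**Figure D2:**
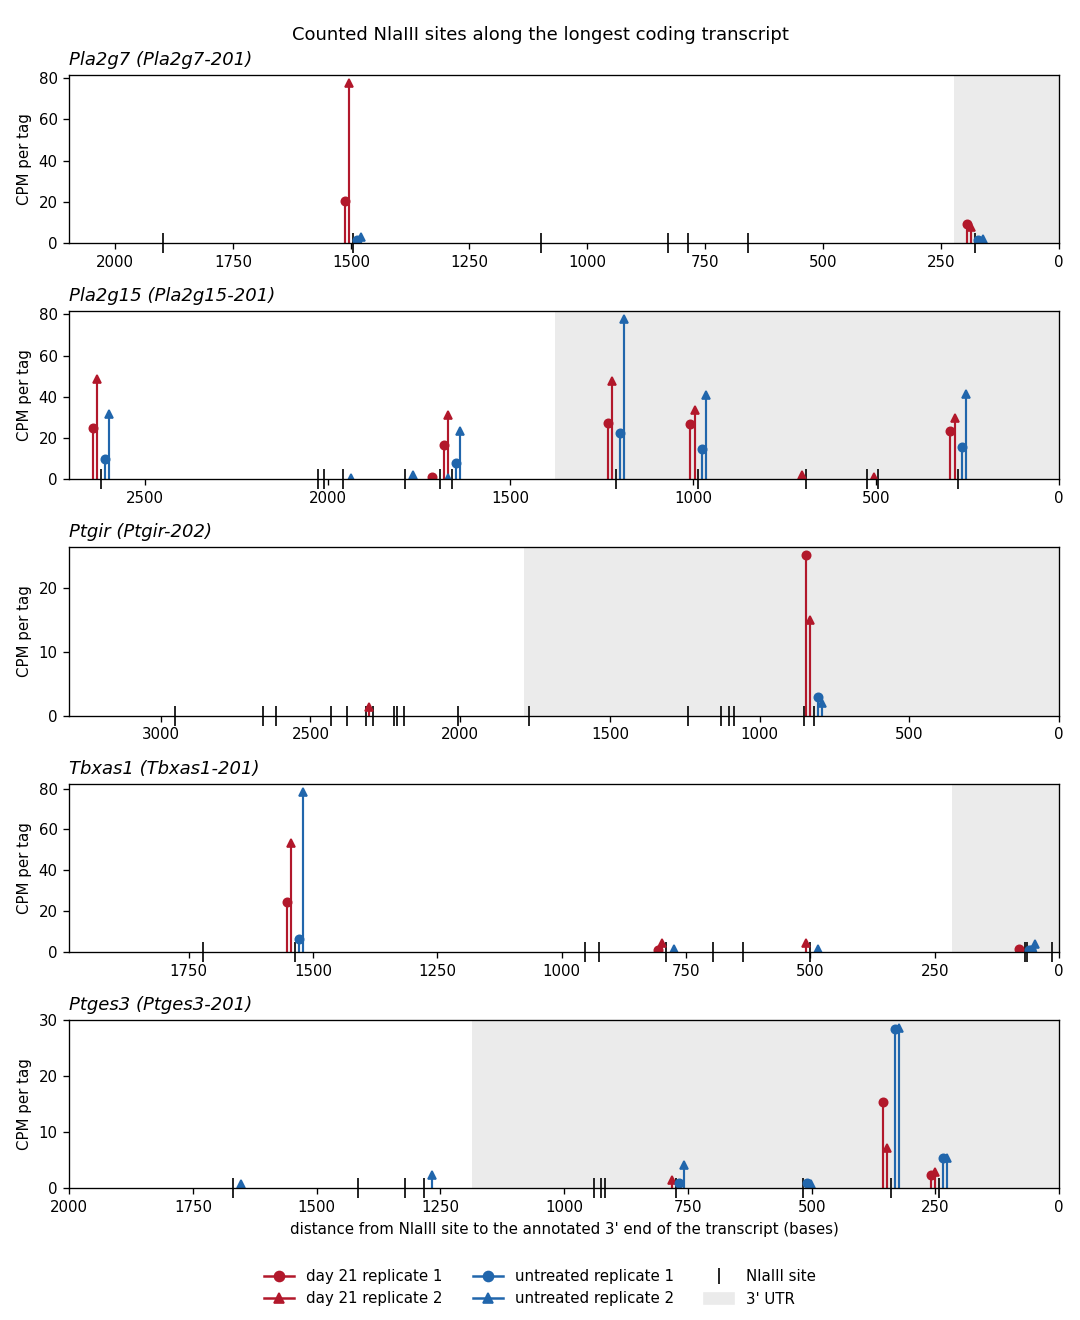
Counted NlaIII sites of the 5 genes that passed the filter, along the longest coding transcript of each. The horizontal axis is the distance in bases from the site to the annotated 3' end, the vertical axis is CPM per tag on the scale of the gene table, black ticks are NlaIII sites and grey is the 3' UTR. Ptgir was counted at its last site, Pla2g7 and Tbxas1 mainly far from the 3' end, Ptges3 near its end and Pla2g15 mainly at 5 sites from exon 1 to the last site.

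In all 4 libraries the share of counts at the last NlaIII site was lower for the 10 genes than for the rest of the table, a difference that was not tested. Counted on the longest coding transcript, the 10 genes had 26.9% and 14.8% of their counts at the last site on day 21, and 21.8% and 14.7% in untreated mice. For all other genes the share was 74.3% and 68.4% on day 21, and 68.9% and 62.0% in untreated mice. With every annotated transcript allowed, the share for the 10 genes was 54.1% and 51.5% on day 21, and 51.2% and 45.4% in untreated mice. For all other genes it was then 84.6% and 77.9% on day 21, and 78.5% and 72.8% in untreated mice. These are shares of pooled counts, and Ctsd alone held 36.42% and 35.54% of the day 21 libraries, and 24.93% and 22.42% of the untreated ones. Without Ctsd the share for all other genes on the longest coding transcript was 60.8% and 52.5% on day 21, and 59.4% and 52.0% in untreated mice. Pla2g15, the gene with the most counts of the set in each library, had 15.4% to 22.2% of its counts at the last site of the longest transcript, and Ptgir had 91.3% to 100%.

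Over the whole table, edgeR's quasi-likelihood test with Benjamini-Hochberg adjustment called 22 of 2993 genes (0.735%), 20 of them higher on day 21 (0.668%) and 2 lower (0.0668%). Of the 5 genes of the set that were tested, 1 was among those called, Pla2g7, and nothing is read from that count, since the set was chosen with it known. Groups did not overlap in the higher direction in 15.2% of all genes tested, and Pla2g7 and Ptgir were in that class. In the lower direction 16% of genes did not overlap, Ptges3 among them. The 5 genes had a median log2 change of 0.12, against -0.07 for all genes tested.

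The call of Pla2g7 at the gene level was lost without either of 2 libraries. Without day 21 metastasis replicate 2 its log2 change was 2.92, and without untreated replicate 1 it was 3.54, and in both cases it was not past the threshold. The call was kept without day 21 metastasis replicate 1, at a log2 change of 4.47, and without untreated replicate 2, at 4.28. Tested tag by tag, 0.358% of 3907 tags were called, and 191 were at an unadjusted p under 0.05. None of the 11 tags of these genes that passed the filter was called by edgeR, 3 were at an unadjusted p under 0.05, and DESeq2 called 1, in Pla2g7. In edgeR 1 tag of Pla2g7 was called with every tag with a count, without day 21 metastasis replicate 1 and without either untreated library. At the tag level 17% of tags were higher without overlap and 14.8% lower without overlap, and both Pla2g7 tags and the Ptgir tag were in the first class.

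**Figure D3:**
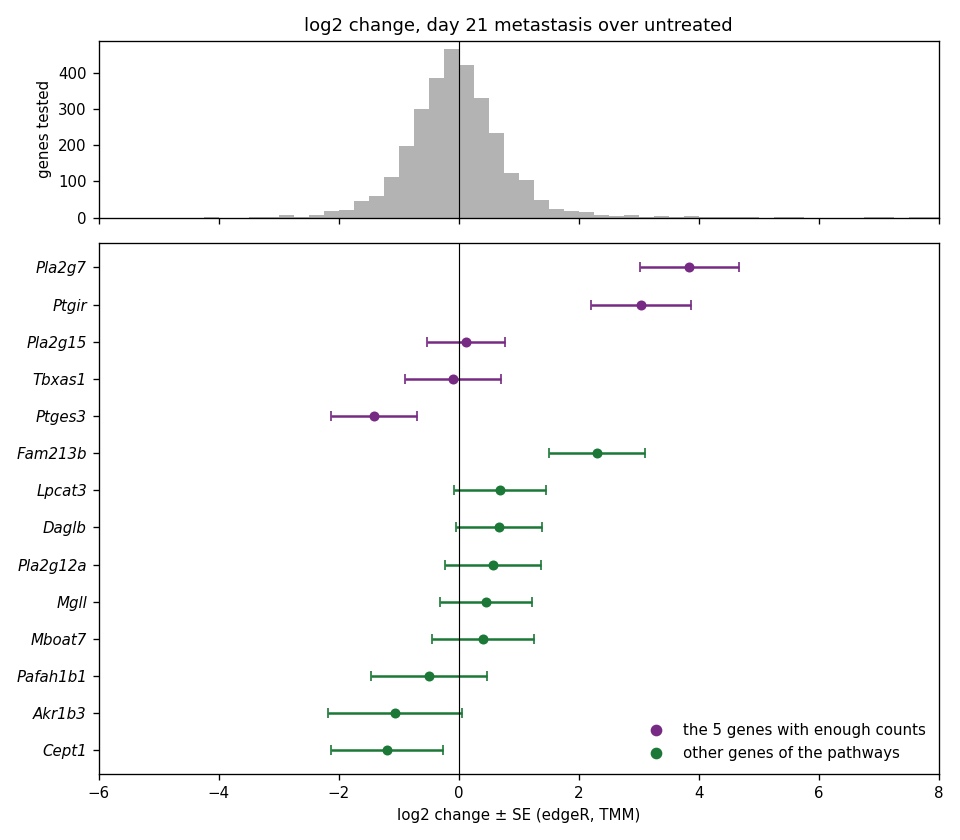
Log2 change (day 21 metastasis over untreated) with its standard error for the 5 genes that passed the filter (purple) and the 9 tested genes of the surrounding pathways (green), below a histogram of all 2993 genes tested. Pla2g7 at 3.84 and Ptgir at 3.04 lie in the right tail, and Prxl2b (drawn under its older name Fam213b) is the highest of the pathway genes at 2.31.

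Other genes of arachidonic acid and platelet-activating factor metabolism were counted from a list of 47, drawn up with earlier results of these data known. Of these, 20 had a count, 9 passed the filter, and 0 passed the threshold in either direction in edgeR's quasi-likelihood test. At an unadjusted p under 0.05 there was 1, and DESeq2 called 0. At that unadjusted level, all 2993 genes held 106 that were higher on day 21 and 64 that were lower. The 9 genes had a median log2 change of 0.46, ranging from -1.19 to 2.31, and 6 of them were positive, against 1363 of all 2993. Of the 27 listed genes with no count, 13 had tags listed at 0 and 14 had no tag among those analysed here.

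Among lipases that release arachidonic acid or its precursors, Daglb, a diacylglycerol lipase, had 47 and 47 counts on day 21, against 26 and 61 in untreated mice. In CPM these were 26.8 and 33.5 on day 21, against 12.8 and 24.9 in untreated mice, higher without overlap, and the gene did not pass the test. Mgll, the monoacylglycerol lipase, had 18 and 25 counts on day 21, against 12 and 35 in untreated mice. Pla2g4a, the cytosolic phospholipase A2 that serves the cyclooxygenases, is listed at 0 on day 21 and had 2 and 0 counts in untreated mice. Pla2g12a, a phospholipase A2 that passed the filter, had 35 and 6 counts on day 21, against 17 and 20 in untreated mice, and was not called. Of the acyltransferases that return arachidonic acid to phospholipid, Mboat7 had 27 and 50 counts on day 21, against 5 and 87 in untreated mice, and Lpcat3 had 36 and 33 on day 21, against 11 and 53 in untreated mice. In CPM, Mboat7 and Lpcat3 were lowest in untreated replicate 1, as were Tbxas1 and Pla2g15, and highest in day 21 metastasis replicate 2. Without untreated replicate 2, Mboat7 was the 1 gene of the list past the threshold, higher on day 21.

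Prxl2b, a prostaglandin F synthase also named Fam213b, had 22 and 39 counts on day 21, against 8 and 10 in untreated mice. Its level was 20.2 ± 10.8 CPM on day 21, against 4.01 ± 0.12 CPM in untreated mice (SD, n = 2 each), and it did not pass the test (log2 change 2.31 ± 0.80 SE, edgeR adjusted p = 0.392). Akr1b3, an aldo-keto reductase with prostaglandin F synthase activity, had 0 and 9 counts on day 21, against 6 and 24 in untreated mice. Ptger1 was the 1 listed prostanoid receptor outside the set with a count, at 6 and 4 on day 21, against 2 and 7 in untreated mice, while Ptgfr and Tbxa2r are listed at 0 and Ptger3, Ptgdr and Ptgdr2 had no tag among those analysed here. Among genes that inactivate prostaglandins, Ptgr2 had 7 and 11 counts on day 21, against 9 and 10 in untreated mice, and Hpgd had counts only in untreated replicate 2, where it had 8.

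On the side of platelet-activating factor, the acetyltransferase Lpcat2 is listed at 0 in all libraries, and the receptor Ptafr had no tag among those analysed here. Lpcat1, an acyltransferase of the same family, had 3 and 0 counts on day 21 and is listed at 0 in both untreated libraries. Pafah1b1, a non-catalytic subunit of the intracellular acetylhydrolase, had 12 and 2 counts on day 21, against 18 and 8 in untreated mice. Cept1, which can add the head group in making platelet-activating factor, had 7 and 3 counts on day 21, against 16 and 16 in untreated mice (log2 change -1.19 ± 0.93 SE, not past the threshold). Pafah2, the other intracellular acetylhydrolase of the list, is listed at 0, so among the listed genes that break down platelet-activating factor only Pla2g7 and subunits of the Pafah1b complex were counted.

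The labelled cell type was checked against marker lists. Of 14 alveolar macrophage markers 13 had counts, with summed levels of 1642 and 3687 CPM on day 21, against 1104 and 2731 CPM in untreated mice, and Fabp4 was at 0 in all libraries. That sum was mostly Chil3 and Ear2, though in untreated replicate 1 Krt79 (329 CPM) was level with Chil3 (329 CPM) and above Ear2 (232 CPM). Of the 11 markers tested 3 had a positive log2 change, the median was -0.52, and none was called. Siglecf, Itgax, Mrc1 and Krt79 were lower on day 21 without overlap, as were 16% of all genes tested. Krt79, a keratin, had 159 and 29 counts on day 21, against 670 and 514 in untreated mice. Chil3, a chitinase-like protein, had 1834 and 3897 counts on day 21, against 671 and 2921 in untreated mice. Ear2, a ribonuclease, had 532 and 936 counts on day 21, against 472 and 2027 in untreated mice. Markers of monocyte-derived and interstitial macrophages moved with Pla2g7 and Ptgir. Their 13 listed genes summed to 2190 and 3325 CPM on day 21, against 57.4 and 130.0 CPM in untreated mice, and 5 of the 7 tested were called higher (Apoe, Ms4a7, C1qb, C1qc and Trem2). Folr2 and Lyve1 of that list were at 0 in all libraries, and Cx3cr1 had no tag among those analysed here. Their part in the levels of Pla2g7 and Ptgir was not tested.

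Platelets are rich in Ptgs1 and Tbxas1, and of 10 platelet markers only Pf4 had counts, with 35 and 37 on day 21, against 0 and 4 in untreated mice. Of the other 9, Itga2b, Gp9, Gp1bb, Gp5 and Clec1b were listed at 0 in all 4 libraries, and Ppbp, Gp1ba, Gp6 and Tubb1 had no tag among those analysed here. No count was seen for the 4 of 6 endothelial, 2 of 8 mast cell and basophil, 3 of 6 T and NK cell and 3 of 5 B cell markers that had listed tags. Neutrophil markers summed to 75.9 and 280.0 CPM on day 21, against 9.32 and 158.6 CPM in untreated mice, mostly the granule peptide gene Camp. S100a9 had 9 and 27 counts on day 21, against 0 and 30 in untreated mice. S100a8, Elane and Ltf had at most 7 counts in a library. Mpo and Cxcr2 were at 0, and Retnlg, Ly6g and Ngp had no tag analysed here. The neutrophil sum was higher in replicate 2 of each group, as were Tbxas1, Pla2g15 and the alveolar macrophage sum. Its part in their levels was not tested. Lung epithelial markers summed to 19.4 and 4.99 CPM on day 21, against 53.5 and 29.0 CPM in untreated mice, nearly all Epcam. Krt8, Krt18, Cdh1 and the surfactant protein gene Sftpa1 were listed at 0 in all libraries. Sftpc, Sftpb and Sftpd had no tag among those analysed here. Of the fibroblast list only Dcn had counts, 4 in each day 21 library, against 0 in both untreated libraries, and of the hepatocyte list only Afp had listed tags, with 3 counts in untreated replicate 2.

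**Figure D4:**
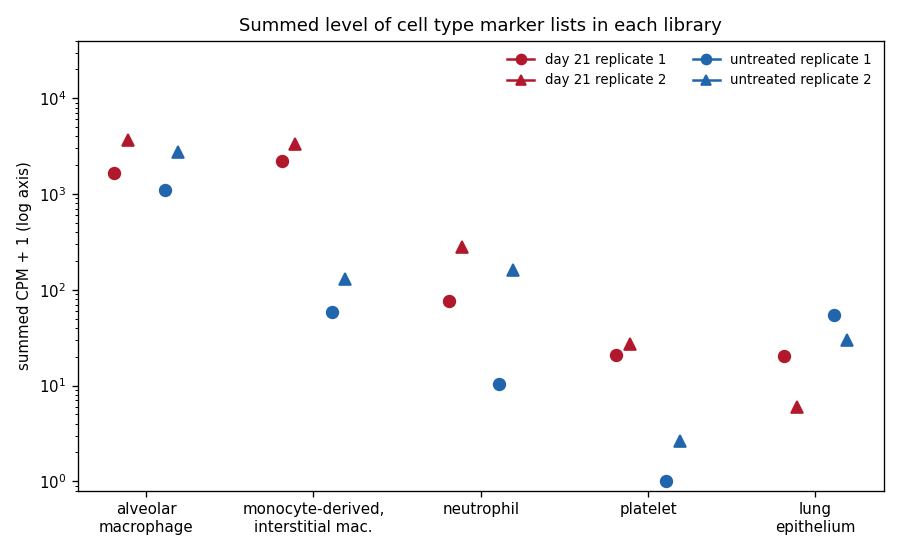
Summed level of 5 marker lists in each library, as CPM + 1 on a log axis, with day 21 in red and untreated in blue, circles for replicate 1 and triangles for replicate 2. The monocyte-derived and interstitial macrophage list is at 2190 and 3325 CPM on day 21 and at 57.4 and 130.0 CPM in untreated mice, while the alveolar macrophage list overlaps between the groups.

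Genes whose pattern over the 4 libraries was nearest to that of Pla2g7 were found by the Euclidean distance of their centred log2 CPM. The 5 nearest were Igf1, Trem2, Rasa4, Clec4a1 and Hmox1, at distances of 0.55 to 0.86. Igf1, a growth factor, had 11 and 19 counts on day 21 and is listed at 0 in both untreated libraries. Rasa4, which switches off Ras, had 19 and 20 counts on day 21, against 0 and 2 in untreated mice. Trem2, a lipid-sensing receptor of macrophages that is also on the interstitial list above, had 59 and 193 counts on day 21, against 10 and 26 in untreated mice. Clec4a1, a C-type lectin, had 13 and 26 counts on day 21, against 2 and 2 in untreated mice, and Hmox1, the haem-degrading oxygenase, had 15 and 55 on day 21, against 2 and 8 in untreated mice. In each of the 5, as in Pla2g7, day 21 metastasis replicate 2 had the highest count. These genes were picked for a pattern like that of Pla2g7, so the shared order is no separate finding. Clec4a1 and Hmox1 were not past the threshold over all genes. Likeness over 4 libraries is a description of these libraries.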

How the data were processed

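SAGE tags were counted in 4 libraries, 2 per group. The deposited values are raw counts, 1 per 21-base tag with a symbol and a RefSeq accession, per the file headers. The submitters' processing notes name mm9 as the build. How tags were matched and filtered is not given in the sources used here. No count of 1 occurs. The members and gene lists were chosen with earlier results of these data known.

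The 30627 listed tags were summed per gene, named through the RefSeq table (GRCm38.p6), with members kept by deposited symbol. Tags were matched after CATG to GENCODE M21 transcripts. The main test was edgeR 4.0.16 (R 4.3.3, quasi-likelihood, TMM, filterByExpr with minimum count 10 and minimum total 15, group as the only term, Benjamini-Hochberg adjustment over all genes, threshold 0.05). Standard errors were derived as log2 change over the root of F. With 2 libraries per group, precision is low (biological coefficient of variation 0.482).

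Genes named are the 10 members, pathway genes that were called or are the 2 most abundant of each role, and the 5 nearest to Pla2g7. Ptgr2, Hpgd, Ptger1, Ptges2, Lpcat1, Pla2g4a, Pla2g12a, Pafah2, Ptafr and Lpcat2 also belong to the list. From marker lists, called genes, alveolar macrophage markers lower without overlap, the most abundant, neutrophil markers with counts and those at 0 are named. Alternatives used other scalings, filters, tags, names and libraries, DESeq2 1.42.0 and a replicate term.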

Additional observations from a re-analysis of the deposited data

How the results depend on the processing

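Over 14 alternatives the log2 change of Pla2g7 ran from 2.92 to 4.47, that of Ptgir from 2.75 to 3.34 and that of Ptges3 from -1.71 to -1.10, each in 1 direction throughout. That of Pla2g15 ran from -0.47 to 1.18 and that of Tbxas1 from -0.95 to 2.44. Pla2g7 was past the threshold in 8 of the 14. It was not with total counts alone, with at least 2 CPM in 2 libraries, without day 21 metastasis replicate 2, without untreated replicate 1, with the most counted tag of each gene alone, or with tags of 1 gene alone. The cause was not tested.

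Over all genes 22 were called, and the count was 9 with total counts alone, 41 with every gene with a count, 10 with at least 2 CPM in 2 libraries, 9 with the most counted tag alone and 11 with tags of 1 gene alone. With 1 library left out it ran from 0 (without untreated replicate 1, with 137 genes at an unadjusted p under 0.05) to 81 (without untreated replicate 2). Total counts moved the median log2 change of all genes to -0.29, against -0.07 with TMM. Over all tags 14 were called, against 34 with every tag with a count and 0 with at least 2 CPM in 2 libraries (316 at an unadjusted p under 0.05, and DESeq2 called 19 of all tags with a count). With 1 library left out it ran from 17 to 96. Pathway genes called ran from 0 to 1 with 1 library left out and were 0 otherwise.

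The labels give no meaning to the shared replicate numbers, and 2 pairs are too few to establish a pairing. Libraries of the same number deviated together (r = 0.54 across genes, which are not independent). With the replicate block 40 genes and 156 tags were called, Ptgir as well as Pla2g7 among the genes and 1 tag each of these among the tags, and the log2 change of Tbxas1 was 0.47.

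With every transcript allowed, the share of counts at a last NlaIII site was 100% in all libraries for Pla2g7. For Ptges3 it was 100% and 87.5% on day 21, against 94.5% and 80.6% in untreated mice, and for Tbxas1 89.6% and 86.2% on day 21, against 76.5% and 90.6% in untreated mice. Taking the highest tag of each library gave 100% for Ptgs1 in untreated replicate 1. Ptgs1, Ptgs2, Ptges, Ptger2 and Ptger4 have too few counts for any comparison. For Ptgs2 and Ptger2 the last NlaIII site of the longest coding transcript is also not among the tags analysed here.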
